A study of Mus musculus with 6 samples.

Results

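Small nucleolar RNAs (snoRNAs), the related small RNAs of Cajal bodies and the non-coding genes that host snoRNAs were followed in mouse prostate tumor cells after androgen withdrawal. The set comprised 78 of the 30142 genes with a value, chosen by name. They were 18 H/ACA snoRNAs (symbols in Snora), 44 C/D snoRNAs (Snord), 6 Cajal body RNAs (Scarna) and 10 genes of the Snhg series, of which Snhg7os is annotated as the opposite-strand neighbour of a host and not as a host. Counts of 10 host genes include Snhg7os. Gas5 was not analysed as a gene of its own, since no feature used carries its symbol alone. It enters only the counts of features shared with other genes.

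The 3 degarelix samples (titled 7dPC, a tag the labels do not explain) came from MCRedAL tumor allografts of male mice. Degarelix, which blocks the receptor for gonadotropin-releasing hormone and so lowers androgen, was injected under the skin once tumors measured about 500 mm2, as the labels write it. The 3 untreated samples (titled Intact) came from allografts of the same line without the drug. All samples were tumor cells sorted for mCherry fluorescence and for lack of the immune markers CD45, CD11b and F4/80 (the product of Adgre1), and all come from 1 tumor line. Total RNA of 6 samples, 1 array each, was read on Affymetrix MTA 1.0 whole-transcript arrays, and the labels call the samples biological replicates.

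Values are log2 expression as deposited, and a change is degarelix minus untreated on that scale, with its SE from limma. "Rose" and "fell" are used where limma's p, adjusted over all 30142 genes by the Benjamini-Hochberg method, was under 0.05. The highest value of the 23 background probe sets was 6.93, the upper end of what is called the background range here, and their median was 3.26. The mean of 45 of the 78 members lay at or below 6.93, so the changes of these members are less certain in size. The same held for the mean of 20971 of all 30142 genes. The arrays read cells in bulk, so fewer cells with an RNA and less of it per cell cannot be told apart. An array feature over a snoRNA can also read the intron that contains it, and this was not tested.

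snoRNAs guide the chemical modification of other RNAs in the nucleolus. C/D snoRNAs direct the methylation of ribose through the methyltransferase that Fbl encodes, and H/ACA snoRNAs direct pseudouridylation through the synthase that Dkc1 encodes. A few act instead in cutting the ribosomal RNA precursor. Cajal body RNAs do the same guiding work on the RNAs of the spliceosome. In mammals most snoRNAs lie in introns of other genes and are released when the intron is spliced and trimmed. Many hosts encode ribosomal or other growth-related proteins, whereas Snhg genes yield a spliced RNA without a conserved protein, often degraded by nonsense-mediated decay.

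Of the 78 members, 14 fell, 2 rose and 62 did not pass the test. Over all genes, 7.51% fell and 4.19% rose. In members the shares were 17.9% and 2.56%. By class, 5 of 18 H/ACA snoRNAs fell, as did 7 of 44 C/D snoRNAs, 0 of 6 Cajal body RNAs and 2 of 10 host genes. The 5 include Snora73a and Snora73b, which are near-identical and may be read by the same features. The 2 members that rose were both C/D snoRNAs. At an unadjusted p under 0.05 in limma, 2 Cajal body RNAs were lower and 0 were higher, and 0 H/ACA snoRNAs and 0 host genes were higher. Median changes were -0.21 for H/ACA snoRNAs, -0.092 for C/D snoRNAs, -0.23 for Cajal body RNAs and -0.043 for host genes, against 0.036 over all genes. All 18 H/ACA snoRNAs had a change below 0, against 31 of 44 C/D snoRNAs and 12459 of 30142 genes. Without untreated replicate 1, 14 of the 18 did, and leaving out any other single sample left 15 to 18. No test of these class differences was made. The groups did not overlap for 27 members (34.6%), against 31.2% of all genes, so non-overlap was about as common as elsewhere. Without degarelix replicate 1, 9 members fell and 1 rose in limma, where 3.2% of all genes fell and 2.07% rose. Without degarelix replicate 2 the counts were again 9 and 1, where 3.69% of all genes fell and 2.39% rose.

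**Figure D1:**
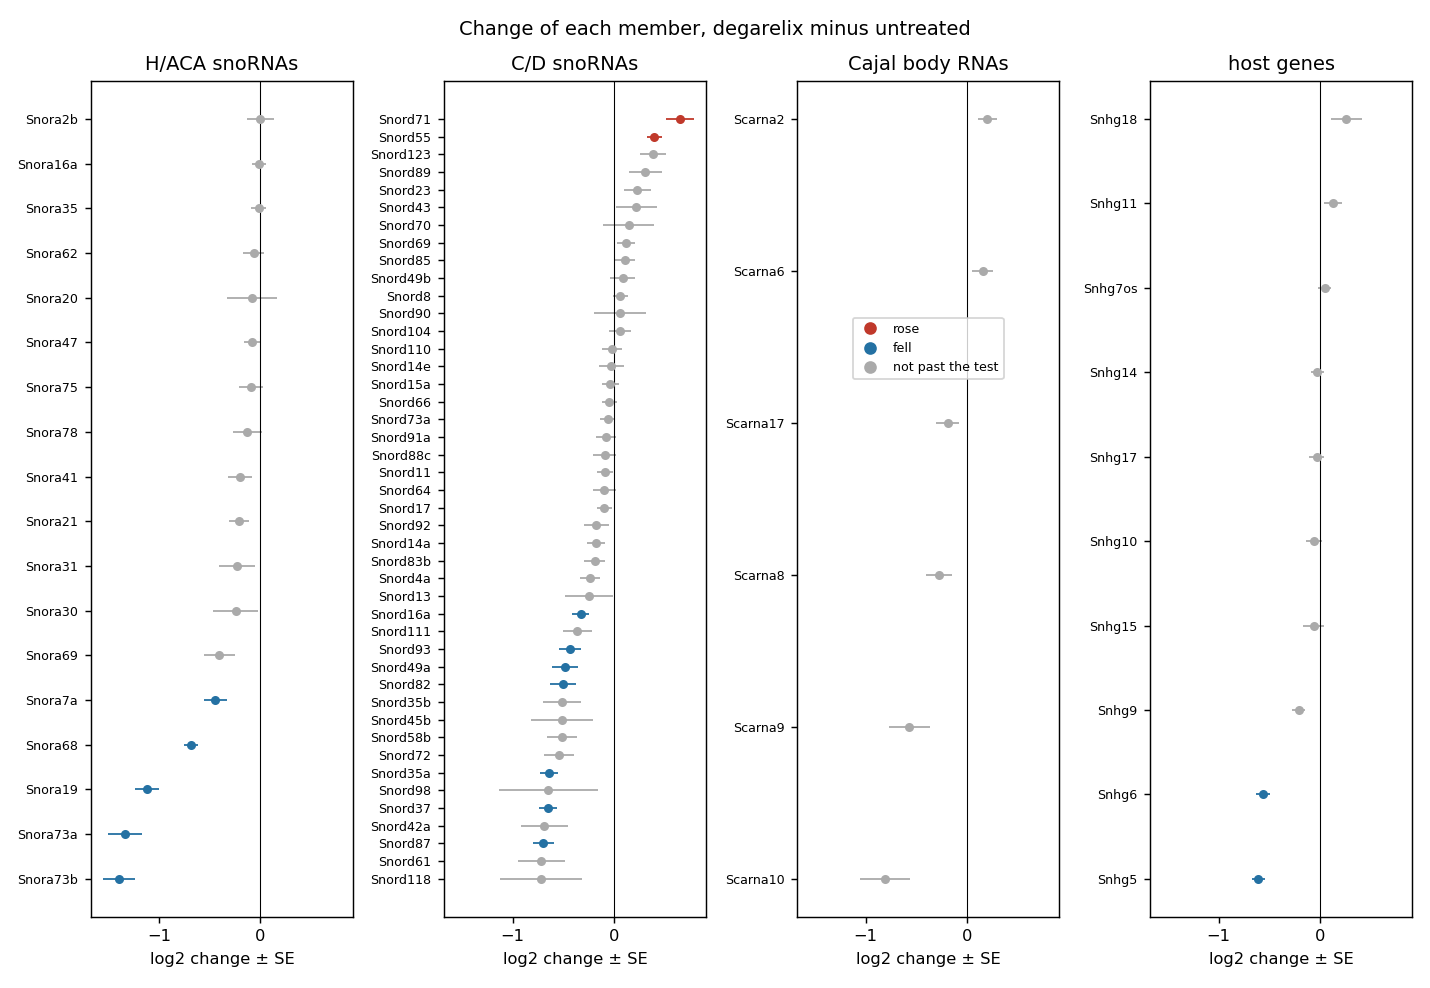
Change of each of the 78 members (log2, degarelix minus untreated, point) with its SE (bar), by class and in order of change. Blue members fell, red members rose and grey members did not pass the test in limma. All H/ACA snoRNAs lie at or left of 0, and the lowest are Snora73b and Snora73a.

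The untreated arrays did not look alike for small RNAs. Untreated replicate 1 was the highest of the 6 arrays for 30 of 68 small RNAs (44.1%), against 11.9% of all genes, and for 0 of 10 host genes. Its median deviation from the mean of the 6 arrays over small RNAs was 0.17, against 0.0070 and 0.048 in untreated replicates 2 and 3. The degarelix arrays stood at -0.13, -0.10 and -0.061. It exceeded every other array by over 0.5 for 8 small RNAs (11.8%), against 0.521% of all genes. The same array had the highest mean of 9 leukocyte markers (6.67, against 5.52 to 5.56 in degarelix samples and 5.40 and 5.91 in the other untreated samples). On it Lyz2 (9.02), Tyrobp (8.39) and Cd14 (7.53) lay above the background range, and the other 6 markers within it. Cd14 alone lay above that range on each degarelix array (6.99 to 7.25). Above it were 0 markers on untreated replicate 2 and 2 on untreated replicate 3. The part of leukocytes in the small RNA values was not tested. Without untreated replicate 1, 11 small RNAs fell (16.2%, against 10.8% of all genes) and 4 rose (5.88%, against 4.8%). The median of the small RNAs was then -0.12 in place of -0.17. On the degarelix side, replicate 1 was the lowest array for 24 of 68 small RNAs (35.3%), against 18.7% of all genes. It was the lowest for 10 of 18 H/ACA snoRNAs (55.6%). Their median change was -0.13 without degarelix replicate 1 and -0.21 with all arrays.

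**Figure D2:**
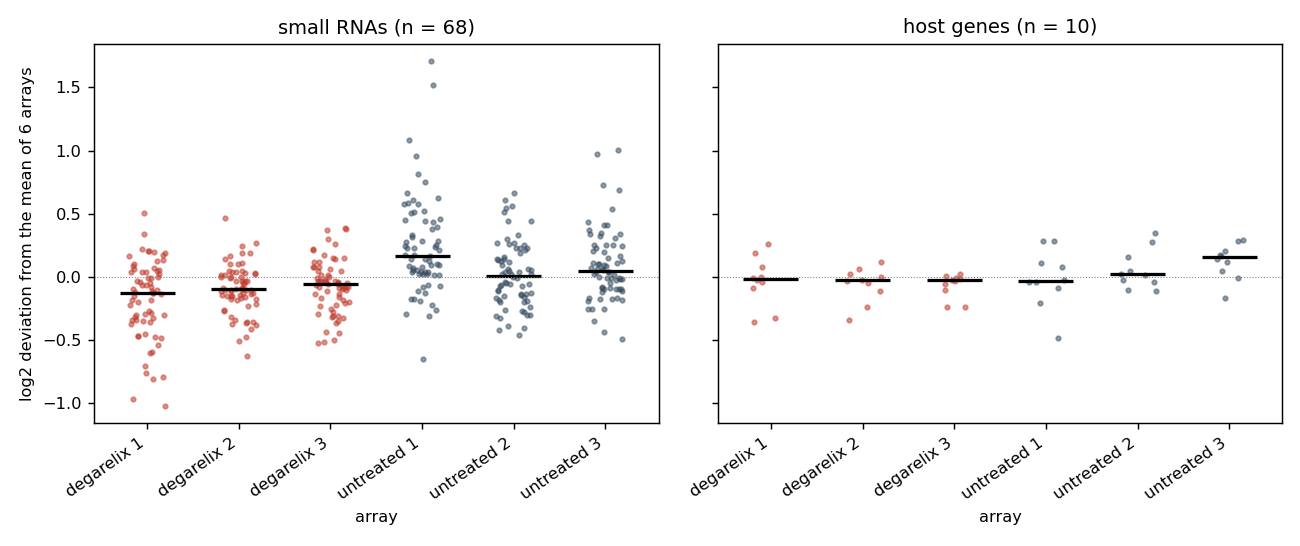
Deviation of each small RNA (left, n = 68) and host gene (right, n = 10) from its own mean over the 6 arrays (log2), 1 point per gene and array, with the median as a black bar. Degarelix arrays are red and untreated arrays dark blue. Small RNAs sit highest on untreated replicate 1, with a median of 0.17, and the host genes do not.

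The deepest falls belonged to H/ACA snoRNAs. Snora73b and Snora73a are copies of U17, also called E1, a snoRNA that acts in cutting the ribosomal RNA precursor on the way to the small subunit and not as a modification guide. Snora73b read 7.51, 7.90 and 8.08 in degarelix samples and 9.05, 9.14 and 9.50 in untreated samples. All degarelix values lay below all untreated ones, by a 2.64-fold lower mean (change -1.40, SE 0.16, limma adjusted p = 0.00117). Snora73a read 7.17, 7.63 and 7.62 in degarelix samples and 8.58, 8.70 and 9.15 in untreated samples, a 2.53-fold lower mean (change -1.34, SE 0.17, limma adjusted p = 0.00182). The 2 RNAs are near-identical, so the array features may read both and they are uncertain as single genes. Degarelix replicate 1 was the lowest array for both. A separate feature of Snora73b changed by -1.43, close to the -1.40 of the brighter feature used here.

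Snora19, an H/ACA snoRNA that lies within Eif3a, the gene of a translation initiation factor subunit, came next. Its values were 6.78, 7.01 and 6.98 in degarelix samples and 8.14, 7.78 and 8.21 in untreated samples. The groups stood apart, with a 2.18-fold lower mean (change -1.12, SE 0.12, limma adjusted p = 8.14e-04). A feature annotated with Snora19 and a microRNA held identical values, so the reading may not be of Snora19 alone. Snora68 had the smallest spread of the H/ACA snoRNAs that fell, with 8.49, 8.49 and 8.53 in degarelix samples and 9.24, 9.12 and 9.22 in untreated samples. It fell by 0.69 (SE 0.068, limma adjusted p = 5.57e-04) and was also the brightest H/ACA snoRNA, at a mean of 8.85. Snora7a, within Rpl32, fell by 0.45 (SE 0.11, limma adjusted p = 0.0367), at a mean of 6.71 within the background range. That call was lost with each array centred on its median (limma adjusted p = 0.0691). It was also lost without degarelix replicate 1 (adjusted p = 0.141), degarelix replicate 2 (0.104), untreated replicate 2 (0.095) or untreated replicate 3 (0.107).

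The other 13 H/ACA snoRNAs did not pass the test. Among the bright ones, Snora31 averaged 8.26 ± 0.047 in degarelix samples and 8.49 ± 0.43 in untreated samples (SD, n = 3 each), where untreated replicate 1 alone stood at 8.95. Without that array its change was 0.0019 in place of -0.23. Snora78, within Snhg9, had a change of -0.13 (SE 0.14), and Snora69, within Rpl39, one of -0.41 (SE 0.15, limma adjusted p = 0.131). Snora69 passed without untreated replicate 2 (-0.58, limma adjusted p = 0.0246) and stood at -0.25 without untreated replicate 1. Snora78 stood at 0.057 without untreated replicate 1, -0.23 without untreated replicate 2 and -0.21 without untreated replicate 3.

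**Figure D3:**
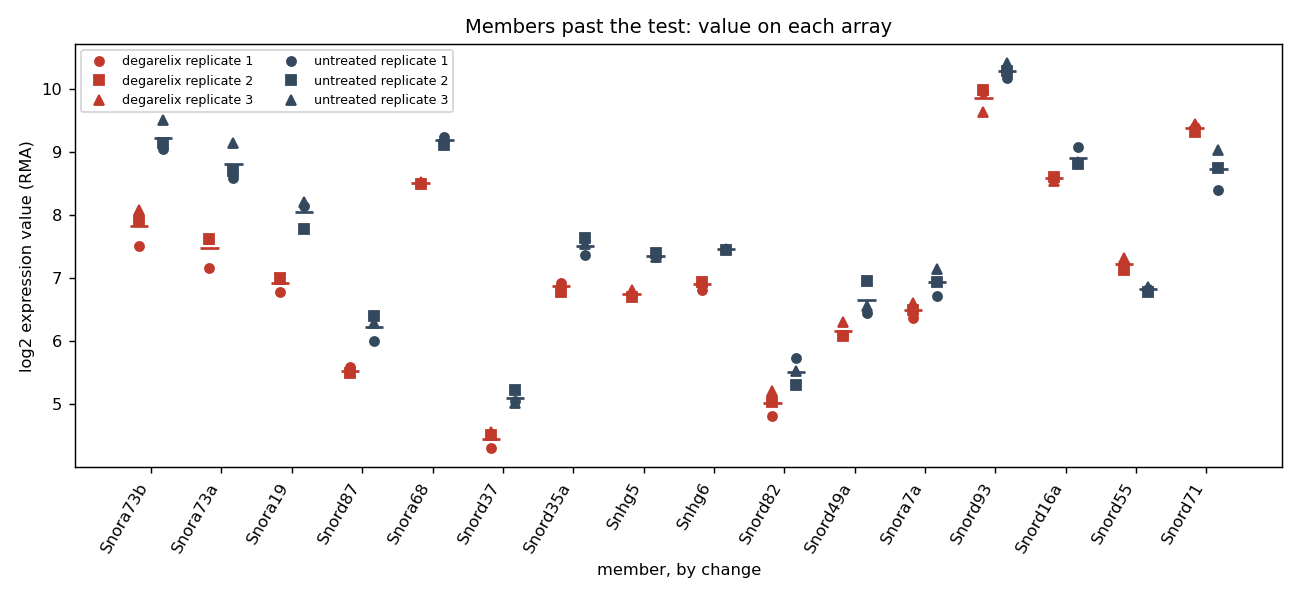
Log2 expression of the 16 members that passed the test, on each array, ordered from the lowest to the highest change. Red symbols are degarelix samples and dark blue symbols untreated samples, symbol shape gives the replicate number and the short bar is the group mean. Groups do not overlap for any of the 16, which largely follows from choosing them by the test on the same values. Only Snord55 and Snord71 on the right lie higher in degarelix samples.

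Among C/D snoRNAs, Snord35a, Snord37 and Snord87 fell by similar amounts. Snord35a lies within the ribosomal protein gene Rpl13a and belongs to a group of snoRNAs in that locus that mouse and hamster cell studies link to the response to excess fatty acid. It read 6.92, 6.78 and 6.91 in degarelix samples and 7.36, 7.63 and 7.54 in untreated samples, and fell by 0.64 (SE 0.088, limma adjusted p = 0.00276). Snord37, within the elongation factor gene Eef2, read 4.31, 4.51 and 4.56 in degarelix samples and 5.06, 5.23 and 5.03 in untreated samples. It fell by 0.65 (SE 0.091, limma adjusted p = 0.00314), with all values inside the background range. Snord87, within Snhg6, read 5.59, 5.50 and 5.51 in degarelix samples and 6.005, 6.40 and 6.29 in untreated samples. That is a fall of 0.70 (SE 0.10, limma adjusted p = 0.00401), also inside the background range.

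The other C/D snoRNAs that fell did so by less and close to the threshold. Of these, Snord82 (mean 5.27) and Snord49a (6.41) lay within the background range. Snord93 fell by 0.43 (SE 0.11, limma adjusted p = 0.0368) and Snord82 by 0.50 (SE 0.13, limma adjusted p = 0.0404). Snord16a fell by 0.33 (SE 0.085, limma adjusted p = 0.0416) and Snord49a by 0.48 (SE 0.13, limma adjusted p = 0.0499). Each of these 4 lost its call in 8 or 9 of 13 alternative fits, cyclic loess among them for Snord93 (adjusted p = 0.137), Snord82 (0.0512), Snord16a (0.253) and Snord49a (0.0656). All 4 lost it without degarelix replicate 1 (adjusted p = 0.0736 to 0.167), degarelix replicate 2 (0.0591 to 0.155) or untreated replicate 3 (0.0782 to 0.125), and Snord16a lost it without any single sample. Snord72, within Rpl37, stood just on the other side with a change of -0.54 (SE 0.15, limma adjusted p = 0.0503).

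Snord71 and Snord55 rose. Snord71, which lies within Ap1g1, the gene of a clathrin adaptor subunit, read 9.39, 9.32 and 9.44 in degarelix samples and 8.40, 8.75 and 9.03 in untreated samples. The untreated values spread over a wider range than the degarelix ones, and the change was 0.66 (SE 0.14, limma adjusted p = 0.0205). That call was lost when each array was centred on its median (adjusted p = 0.0632) and without any single degarelix replicate (0.0529 to 0.0769) or untreated replicate 2 (0.0502). Snord55 read 7.23, 7.13 and 7.33 in degarelix samples and 6.83, 6.78 and 6.86 in untreated samples. It rose by 0.40 (SE 0.075, limma adjusted p = 0.011).

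The brightest C/D snoRNAs did not pass the test. Snord42a averaged 10.80 ± 0.40 in degarelix samples and 11.48 ± 0.41 in untreated samples (SD, n = 3 each), with untreated replicate 1 highest at 11.96. Its change was -0.68 with all arrays and -0.45 without that one. Snord14e, a copy of U14, which acts in making the small subunit, averaged 10.99 ± 0.19 in degarelix samples and 11.02 ± 0.19 in untreated samples. Its change was -0.025 (SE 0.12, limma adjusted p = 0.912). Snord89 averaged 10.94 ± 0.10 in degarelix samples and 10.63 ± 0.37 in untreated samples, a change of 0.31 that did not pass, and without untreated replicate 1 it passed with a change of 0.52 (limma adjusted p = 0.011). Snord70 passed without that array too (change 0.48, limma adjusted p = 0.045), and stood at 0.15 with all arrays.

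Several large C/D values rested on that array. Snord118 is U8, which acts in processing the RNAs of the large subunit. It read 4.43, 4.65 and 4.58 in degarelix samples and 6.43, 4.58 and 4.80 in untreated samples. Its change of -0.72 (SE 0.41, limma adjusted p = 0.299) became -0.14 without untreated replicate 1. Snord98 read 5.12, 5.36 and 5.71 in degarelix samples and 7.43, 5.41 and 5.28 in untreated samples, so its -0.64 became 0.049. Snord61 stood at -0.72 with the array and -0.42 without it (limma adjusted p = 0.0846 and 0.0632).

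No Cajal body RNA passed the test with all 6 arrays and no block. Scarna10, known as U85, carries both C/D and H/ACA domains and guides modification of the U5 RNA of the spliceosome. It read 5.51, 5.46 and 5.31 in degarelix samples and 6.92, 5.85 and 5.94 in untreated samples, all inside the background range. The groups did not overlap, yet the wide untreated spread left it at -0.81 (SE 0.24, limma adjusted p = 0.0683). Without untreated replicate 1 it fell by 0.47 (limma adjusted p = 0.0106), a smaller change that passed. It also passed without untreated replicate 2 (-1.004, limma adjusted p = 0.0436) and with the replicate number as a block (-0.81, limma adjusted p = 0.0446). Scarna9 had a change of -0.57 (SE 0.20, limma adjusted p = 0.115), at levels of 3.71 in degarelix samples and 4.27 in untreated samples. It stood at -0.30 without degarelix replicate 1, and passed without degarelix replicate 3 (-0.78, limma adjusted p = 0.0365). The brightest of the class, Scarna17 and Scarna2, had changes of -0.19 (SE 0.12) and 0.20 (SE 0.094), and Scarna6 and Scarna8 had 0.16 (SE 0.10) and -0.28 (SE 0.13). Scarna17 stood at -0.048 without untreated replicate 1.

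Of the Snhg genes, Snhg5 and Snhg6 fell and the other 8, Snhg7os among them, did not pass the test. Without Snhg7os, 2 of 9 hosts fell, with a median change of -0.057. Snhg5 read 6.73, 6.71 and 6.81 in degarelix samples and 7.33, 7.40 and 7.33 in untreated samples, a 1.52-fold lower mean (change -0.61, SE 0.067, limma adjusted p = 9.28e-04). Snhg6 read 6.82, 6.94 and 6.94 in degarelix samples and 7.46, 7.45 and 7.47 in untreated samples, a 1.47-fold lower mean (change -0.56, SE 0.068, limma adjusted p = 0.00147). Replicates of these hosts lay close together and the groups were clearly apart. The median SD within groups was 0.062 for host genes, against 0.18 for small RNAs and 0.10 for all genes.

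Snhg17, the brightest host, averaged 7.70 ± 0.012 in degarelix samples and 7.73 ± 0.10 in untreated samples (SD, n = 3 each). Snhg10 averaged 7.22 ± 0.022 in degarelix samples and 7.27 ± 0.13 in untreated samples, and Snhg15 averaged 7.07 ± 0.010 in degarelix samples and 7.13 ± 0.21 in untreated samples. Their changes were -0.028, -0.057 and -0.061 (limma adjusted p = 0.829, 0.671 and 0.727). Snhg9 had a change of -0.21 (SE 0.066, limma adjusted p = 0.0782), and the 3 degarelix values of 6.54 to 6.56 lay below the 3 untreated values of 6.70 to 6.82. With cyclic loess Snhg9 passed (-0.22, limma adjusted p = 0.0477). Snhg18 stood at 0.26 (SE 0.16), with its snoRNA Snord123 at 0.39 (SE 0.12, limma adjusted p = 0.0813). Snhg18 moved to 0.087 without untreated replicate 1 and 0.43 without untreated replicate 3. Snord123 passed without degarelix replicate 3 (0.53, limma adjusted p = 0.0183) and stood at 0.26 without degarelix replicate 2. Snhg11, Snhg14 and Snhg7os had changes of 0.13, -0.024 and 0.051, all at levels within the background range, as was Snord64, which lies within Snhg14, at -0.091.

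Hosts often share an array feature with their own snoRNAs. There were 45 features annotated with a member of these families and at least 1 other gene, which were left out of the set and are not named here. A limma fit over all 65956 features was added after the data were seen. In it 11 of the 45 fell and 0 rose, against 3.07% and 1.88% of all features. Of those 65956 features 33206 have no gene symbol, and in the fit over genes 7.51% fell and 4.19% rose. At an unadjusted p under 0.05 in limma, 23 of the 45 were lower and 0 higher. The median change of the 45 was -0.19, against 0.045 for all features. Of these, 7 features carry a snoRNA together with a host symbol from the names used to choose the set. Features that join a snoRNA to a protein-coding gene were not counted among the 7. All 7 had a change below 0 (-0.84 to -0.23), and 4 of them fell. Their groups did not overlap, against 24.4% of all features and 31.2% of all genes without overlap. Whether the host or the snoRNA gives the value of such a shared feature cannot be told from the array. For 1 of the 45, annotated with Snora19 and a microRNA, the values were identical to those of Snora19. The same values are thus counted in the set and among the 45.

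The sequences around the annotated starts of 8 genes were searched for 2 motifs, and those of 6 are shown because they are hosts or containing genes that the results turn on. Snhg5 fell, Snhg3 contains Snora73a and Snora73b, Eif3a contains Snora19, Rpl13a contains Snord35a, and Snhg15 and Snhg10 had changes near 0. Each run of 120 bases covers 80 bases before and 40 bases from the start, on the gene's strand, from RefSeq on GRCm38.p6. Capitals mark TATAAA or CACGTG, each searched on both strands (CACGTG reads the same on both, and the motifs do not overlap each other).
Snhg5, chr9:88522858-88522977, minus strand: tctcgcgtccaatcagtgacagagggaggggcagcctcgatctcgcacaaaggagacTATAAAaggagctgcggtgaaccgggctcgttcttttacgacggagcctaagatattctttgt
Snhg3, chr4:132353647-132353766, minus strand: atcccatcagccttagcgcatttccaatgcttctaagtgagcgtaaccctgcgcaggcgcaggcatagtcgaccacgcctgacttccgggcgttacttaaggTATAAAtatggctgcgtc
Eif3a, chr19:60790654-60790773, minus strand: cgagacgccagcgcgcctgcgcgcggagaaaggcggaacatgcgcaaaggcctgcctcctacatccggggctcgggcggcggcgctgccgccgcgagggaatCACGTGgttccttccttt
Rpl13a, chr7:45128706-45128825, minus strand: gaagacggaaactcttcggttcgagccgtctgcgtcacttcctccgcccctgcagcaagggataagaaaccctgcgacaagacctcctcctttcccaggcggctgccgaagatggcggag
Snhg15, chr11:6528721-6528840, minus strand: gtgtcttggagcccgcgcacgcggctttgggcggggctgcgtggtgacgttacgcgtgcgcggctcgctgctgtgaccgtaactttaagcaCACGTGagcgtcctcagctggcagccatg
Snhg10, chr12:105032240-105032359, minus strand: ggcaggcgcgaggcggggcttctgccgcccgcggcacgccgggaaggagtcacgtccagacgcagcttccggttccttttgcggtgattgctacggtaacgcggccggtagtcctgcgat

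TATAAA stood in 5.86% and CACGTG in 3.67% of the 32851 windows of this length in the table. In Snhg5 TATAAA began 23 bases before the annotated start, and in Snhg3 it began at base 23 after it. CACGTG, the letters of the E-box that Myc family proteins bind, began at base 23 of Eif3a and base 12 of Snhg15. Snhg10 and Rpl13a held neither in this window, nor did Ap1g1, which contains Snord71, or Snhg17, so 4 of the 8 genes held a motif. These matches describe letters and do not show binding, and genes with and without a fall held them.

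Most small RNAs could be placed inside another gene. By position in RefSeq, 54 of 68 lay inside a protein-coding gene, 10 inside a long non-coding gene alone and 4 in none; the table gives no strand, so nesting was not checked for direction. For 37 the containing gene also had a value of its own, which gave 37 pairs with 35 genes, taking the brightest gene where several contain the RNA. Changes had the same sign in 31 of the 37 pairs. Most RNAs and most containing genes in these pairs had a negative change, so many pairs would share a sign without any link. Across the pairs Pearson's r was 0.54 and Spearman's rho 0.63, a description over RNAs that share the same 6 arrays and, in some cases, the same gene.

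Of the 37 pairs, the containing gene fell in 11, counting Ncl once per RNA, and the small RNA fell in 6. Over all genes 7.51% fell. In 3 pairs both fell. Snord87 (-0.70) fell with Snhg6 (-0.56), Snord82 (-0.50) with Ncl (-0.47), which encodes the nucleolar protein nucleolin, and Snord93 (-0.43) with the long non-coding gene 2700038G22Rik (-0.48). Snora75, also within Ncl, had a change of -0.095 (SE 0.12) that did not pass. The mean of 2700038G22Rik was 6.83, within the background range. In 3 further pairs the snoRNA fell and the containing gene did not pass the test. Eif3a averaged 9.56 ± 0.038 in degarelix samples and 9.77 ± 0.076 in untreated samples (SD, n = 3 each), a change of -0.21 (limma adjusted p = 0.0935) beside the -1.12 of Snora19. Eef2 averaged 12.36 ± 0.047 in degarelix samples and 12.38 ± 0.077 in untreated samples (SD, n = 3 each), a change of -0.024 (limma adjusted p = 0.852) beside the -0.65 of Snord37. Rpl4 stood at -0.084 (limma adjusted p = 0.509) beside the -0.33 of Snord16a. The difference within these pairs was not tested. Snord71 rose by 0.66 while Ap1g1 stood at 0.077 (limma adjusted p = 0.607).

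In 8 pairs the containing gene fell and the small RNA did not pass. They included all 3 Cajal body RNAs that lie in genes of cell division. Ncapd2, a condensin subunit gene that contains Scarna10, fell by 1.31 (SE 0.13). Haus6, a spindle protein gene that contains Scarna8, fell by 1.26 (SE 0.15), and Cep295, a centriole protein gene that contains Scarna9, by 0.78 (SE 0.081). The RNAs inside them stood at -0.81, -0.28 and -0.57. Haus6 (mean 6.20), Cep295 (5.75) and the 3 RNAs lay within the background range. The other 5 were Rbmx (-0.71) with Snord61, Snx5 (-0.61) with Snord17 (-0.092), Ncl with Snora75, Sf3b3 (-0.46) with Snord111 (-0.36) and Chd8 (-0.28) with Snord8 (0.065). Of these 5 genes, Rbmx (mean 6.84) and Chd8 (6.74) also lay within that range.

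**Figure D4:**
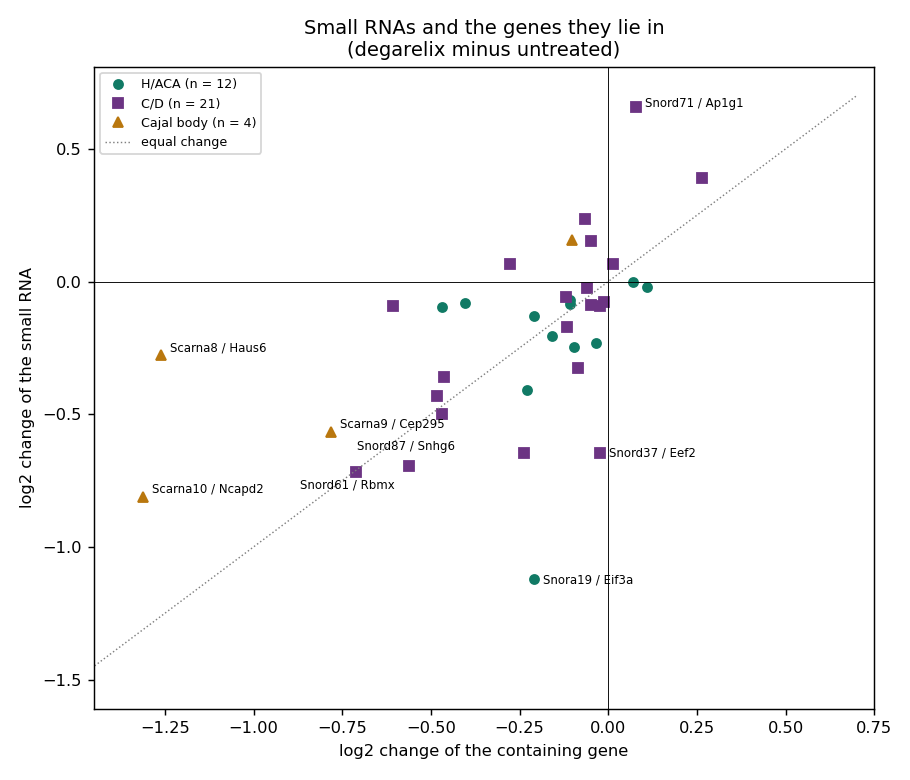
Change of the small RNA (vertical) against that of the gene it lies in (horizontal), both log2 and degarelix minus untreated, for 37 pairs. Colour and shape give the class and the dotted line marks equal change. Snora19 and Snord37 lie far below the line, Snord71 above it, and the 3 labelled Cajal body RNAs in cell division genes above it on the left.

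Of 39 known protein-coding hosts on a list, 15 had a feature annotated with that gene alone, and the others were not counted. Of these 15, 2 fell and 0 rose, against 7.51% and 4.19% of all genes. All 15 changes lay below 0, with a median of -0.13. Those that fell were Dkc1 at -0.55 and Ncl at -0.47, and both are counted again on lists below.

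Some genes of proteins that bind, assemble and use snoRNAs fell, and 0 rose in limma, also at an unadjusted p under 0.05. The counts of this list and those that follow stand beside 7.51% of all genes that fell and 4.19% that rose. Of the 4 core proteins of H/ACA particles, Dkc1, the pseudouridine synthase, averaged 7.90 ± 0.11 in degarelix samples and 8.44 ± 0.14 in untreated samples (SD, n = 3 each). It fell by 0.55 (SE 0.093, limma adjusted p = 0.00764). Gar1 and Nop10 had changes of -0.26 and -0.23 (limma adjusted p = 0.129 and 0.101). Of 4 listed core genes of C/D particles, 2 had a feature annotated with that gene alone. They were the methyltransferase gene Fbl at -0.35 (SE 0.11, limma adjusted p = 0.0744) and Nop58 at -0.048 (SE 0.13, limma adjusted p = 0.836). At least 1 other core gene shares its feature with a snoRNA and was not counted. Of 10 assembly factors 2 fell. Naf1, which loads H/ACA particles in place of Gar1, fell by 0.96 (SE 0.17, limma adjusted p = 0.00979), and Rpap3, a cofactor of the chaperone complex that assembles C/D particles, fell by 0.41 (SE 0.10, limma adjusted p = 0.0331). All 10 assembly factors had a change below 0, with a median of -0.32.

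Of 5 Cajal body proteins, Gemin2, a partner of the survival motor neuron protein, fell by 0.57 (SE 0.085, limma adjusted p = 0.004). Of 19 genes of the small subunit processome and RNA polymerase I, 5 fell and 0 rose (median -0.24), among them Mphosph10, a partner of the U3 snoRNA, at -0.53, Ubtf, the upstream binding factor of ribosomal DNA, at -0.36, and the acetyltransferase gene Nat10 at -0.35. Of 9 large subunit assembly genes 4 fell and 0 rose (median -0.26), with Bop1 at -0.53, Ncl at -0.47, Wdr12 at -0.36 and Npm1, which encodes nucleophosmin, at -0.35. Of 8 genes of intron debranching and nonsense-mediated decay 2 fell, the exonuclease gene Xrn2 at -0.33 and Aqr, an intron-binding spliceosome helicase gene, at -0.31, whereas Upf1, the central decay helicase gene, stood at -0.058 (SE 0.13).

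Of 16 other small RNAs measured, 1 rose and 0 fell in limma (2 were lower at an unadjusted p under 0.05), with a median of -0.012. The list holds Rnu3a (-0.24) and Rnu3b1 (-0.017), copies of the C/D snoRNA U3 whose symbols lie outside the set, and Rn7s1 and Rn7s2, whose values were identical on all arrays. Without U3 and with that pair counted once, 1 of 13 rose and 0 fell (2 were lower at an unadjusted p under 0.05), with a median of -0.0063. Rnu12, the U12 RNA of the minor spliceosome, rose by 0.34 (SE 0.089, limma adjusted p = 0.0414). Terc, the telomerase RNA, which has an H/ACA domain, averaged 6.42 ± 0.12 in degarelix samples and 6.48 ± 0.039 in untreated samples (SD, n = 3 each). The transcription regulator RNA Rn7sk stood at -0.11 (SE 0.067) and Rmrp, the RNA of an endonuclease that acts on ribosomal RNA, at -0.31 (SE 0.11, limma adjusted p = 0.113).

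**Figure D5:**
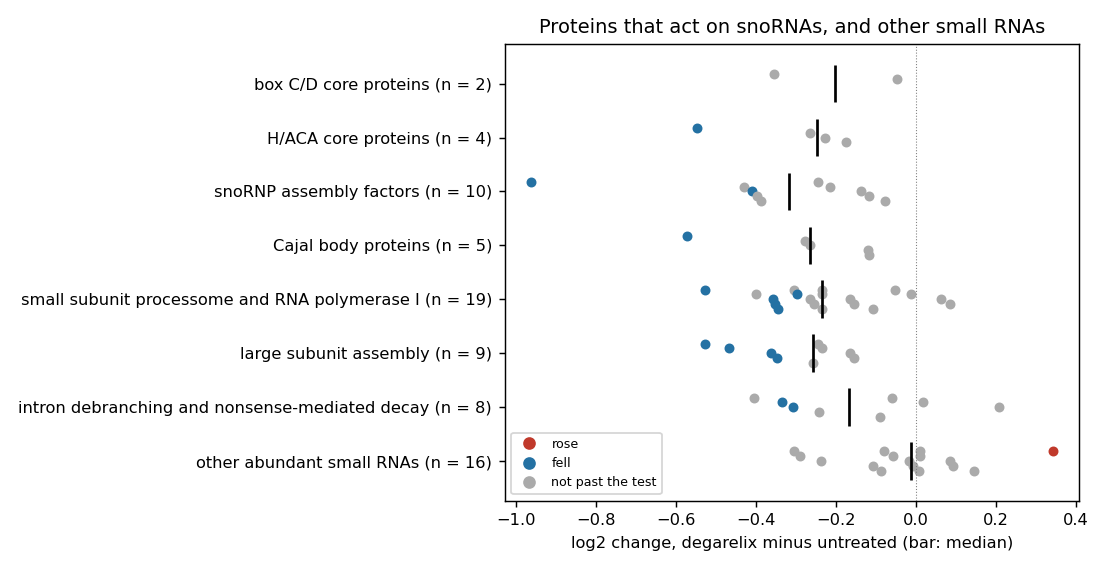
Change (log2, degarelix minus untreated) of the genes of 8 lists, 1 point per gene, with the list's median as a black bar. Blue genes fell, red genes rose and grey genes did not pass the test in limma. The protein lists have medians between -0.32 and -0.17, and the other small RNAs one of -0.012.

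Markers of other cells moved with the groups as follows. Of 9 leukocyte markers 0 passed the test in limma (1 was lower at an unadjusted p under 0.05), with Lyz2 at -1.72 (SE 0.57, adjusted p = 0.0914). Of 7 fibroblast markers 2 rose, Dcn and Fbln1, and the list averaged 8.09 to 8.83 in degarelix samples and 7.65 to 7.98 in untreated samples. Of 6 endothelial markers 1 fell (Vwf), with list means of 6.25 to 6.28 in degarelix samples and 6.34 to 6.70 in untreated samples. The epithelial keratin gene Krt8 was bright, at 11.92 in degarelix samples and 11.55 in untreated samples, whereas Krt18 (5.67 and 5.50) and the epithelial marker Epcam (3.90 and 3.85) lay within the background range in both groups. Hoxb13, a prostate transcription factor gene, read 6.86 to 7.01 in degarelix samples and 7.03 to 7.22 in untreated samples (change -0.19, SE 0.083, limma adjusted p = 0.179), without overlap. The part of other cells in the snoRNA values was not tested.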

How the data were processed

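Per the submitters' processing notes, the authors used Affymetrix Expression Console and RMA to make the deposited log2 values; no source used here gives versions, settings or a build. RMA brings all arrays to a common distribution, which removes shifts shared by a whole array and compresses changes of dim features. The log2 scale was read from the values. Of 72688 rows, 6732 control rows were left out; of 65956 features, 30604 had 1 gene symbol, 2146 several and 33206 none. Platform symbols were brought up to date by Entrez number against RefSeq's GRCm38.p6 gene table (827 changed, 2 of them members, Snhg15 and Snhg17). All 78 members matched that table. The unit tested was the brightest feature of each of 30142 genes, without a filter; 4 members had several features.

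limma 3.58.1 (R 4.3.3; lmFit and eBayes, two-sided, adjusted over all genes, threshold 0.05) compared 3 degarelix with 3 untreated samples; 3 arrays per group limit the precision. In data simulated for this comparison over 30142 genes, limma called 96 of 100 genes with a simulated log2 change of 1, 51 of 100 at 0.5 and 6 of 29942 unchanged ones. Far fewer genes were changed there than the 3526 called in the data. Spreads were those of all genes (median SD 0.10, against 0.18 for small RNAs), so these shares need not hold for the members. Members, lists and rules were chosen with earlier results of these data known. Named by rule were all called members, the brightest 3 and the 2 largest uncalled changes per class. All hosts and their nested snoRNAs, containing genes, and up to 4 genes per list were named too. Snord8, Snord17, Snord70, Snord72, Snord98, Snord111, Scarna6, Scarna8, Snora75, Upf1, Terc and Rn7sk were named beyond this rule after their values were seen. Rnu3b1, Rn7s1, Rn7s2 and Cd14 were also named outside it. Nesting was planned by strand; the table has none, so position alone was used. Other settings tried were centring on array medians, quantile and cyclic loess normalization, an intensity trend with robust variances, a filter on dim genes (mean above 3.26), the mean of a gene's features, the replicate number as a block and leaving out each sample. Tables and figures used Python 3.11.15, pandas 2.3.3 and matplotlib 3.10.9. The containing genes of Snora68 and Snord55 are not reported here.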

Additional observations from a re-analysis of the deposited data

How the results depend on the processing

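Of the 16 members that passed the test, 10 kept direction and call in all 13 alternative fits: Snora73a, Snora73b, Snora19, Snora68, Snord35a, Snord37, Snord87, Snhg5 and Snhg6, which fell, and Snord55, which rose. The other 6 lost their call in at least 1 fit and kept their direction. On leaving out single samples 9 to 13 members fell and 1 to 4 rose. With each array centred on its median 1 member rose, and 691 of 2630 called genes rose, against 1262 of 3526 with the values as deposited. Leaving out a sample gave 1590 to 4700 genes called and 624 to 1651 that rose. Medians then were -0.26 to -0.13 for H/ACA snoRNAs, -0.15 to -0.090 for C/D snoRNAs, -0.32 to -0.13 for Cajal body RNAs and -0.088 to 0.0054 for hosts.

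Some values near 0 that did not pass the test changed sign. With cyclic loess Snhg17 was at 0.028, Snhg7os at -0.015 and Snord14e at 0.11. With quantile normalization Snhg17 was at 0.044, Snhg7os at -0.0083, Snord14e at 0.079 and Snhg10 at 0.0043. On leaving out single samples, Snhg10 ranged over -0.095 to 0.016, Snhg15 over -0.18 to 0.0032, Snhg17 over -0.081 to 0.024, Snora30 over -0.45 to 0.0045, Snora31 over -0.42 to 0.0019, Snora78 over -0.23 to 0.057, Snord14e over -0.13 to 0.064 and Snord64 over -0.17 to 0.039. The cause was not tested.

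Deviations of same-numbered samples correlated at 0.16, 0.040 and 0.20, so the numbers were not taken to pair the samples, although every sample correlated best with its own number. With the replicate block 12 members fell and 2 rose, and 3806 genes were called.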
